A study of Mus musculus with 6 samples.

Results

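Foxh1, Gdf3 and 8 genes of TGF-beta and activin signalling were read in mast cells sorted from mouse skin before birth and in adult life. The 10 genes, Foxh1, Gdf3, Tgfb1, Inhba, Tgfbr1, Tgfbr2, Acvr1b, Acvr2a, Smad3 and Smad7, were taken by symbol out of 47643 genes in the count table. The choice was made with the values of this comparison in view, so the 10 genes are given as values and fitted differences without p-values, whereas pathway genes outside the 10 are tested.

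Both groups came from skin of Cdh5CreERT2 mice, whose tamoxifen-inducible Cre is driven by the endothelial gene Cdh5, and both were pulsed with 4OHT at embryonic day 7.5. The 3 embryonic libraries hold cells sorted at E16.5 as CD45+ F4/80- CD64- ckit+ ST2+, which the submitters describe as derived from yolk sac hemogenic endothelium. The 3 adult libraries hold CD45+ F4/80- CD64- ckit+ Fcer1+ cells, which the submitters call definitive. The labels do not say that the Cre label was used in the sort, give the adult age only as adult and do not state whether replicates were separate animals, so the p-values below rest on a spread among libraries that may be technical. Life stage, the origin the submitters describe, the final sort marker and an added Dispase step on adult skin all differ between the groups and cannot be told apart.

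TGF-beta ligands bind a type II receptor kinase, which activates a type I receptor, which in turn phosphorylates SMAD proteins that enter the nucleus and act on genes with partner factors. TGF-beta uses Tgfbr2 and Tgfbr1 and activin uses Acvr2a or Acvr2b with Acvr1b, and both pass through Smad2 and Smad3, while Smad7 blocks the receptors. FOXH1 is a forkhead factor that brings activated SMADs to DNA, and it is best known from Nodal signalling in the gastrulating embryo. Gdf3 is a ligand of the same superfamily, known from pluripotent cells, that signals like Nodal through activin receptors and an EGF-CFC co-receptor. In mast cells TGF-beta is known to restrain activation and to induce proteases of mucosal mast cells.

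Libraries held 34122162 to 49813523 counts in genes. All 12 mast cell markers were detected in both groups, with a summed level of 126160 to 137940 CPM (counts scaled to the TMM-adjusted library size) before birth and 63191 to 66141 CPM in the adult. Values after ± are SDs over the 3 libraries of a group unless given as a standard error (SE). Of 15111 genes tested across the table, 63.0% passed an adjusted p of 0.05 with edgeR's quasi-likelihood test, 31.2% as higher in embryonic and 31.7% as higher in adult libraries. Of the 12 mast cell markers, 7 passed as higher in embryonic and 3 as higher in adult libraries. Among those 3 was Fcer1a, at a mean of 5.84 CPM before birth and 761 CPM in the adult. Markers of other cells were present at levels that differed between groups. The highest sum was that of 4 platelet and megakaryocyte markers, at 782 to 1085.5 CPM in the adult and 33.3 to 90.1 CPM before birth, nearly all of it from Itga2b, an integrin chain (13.6-fold higher in the adult); Pf4, also higher, averaged 1.41 CPM in the adult, and the part of these cells in the results was not tested. Of 4 keratinocyte markers 2 passed the test as higher in embryonic libraries (49.7 to 501 CPM summed, against 15.8 to 39.4), and of 4 erythroid markers 3 did (53.9 to 134 against 1.10 to 3.92 CPM); both sums were highest in embryonic replicate 3. Higher in adult libraries were 3 of 3 dendritic cell markers (29.5 to 73.2 against 0 to 0.417 CPM summed) and 5 of 6 macrophage markers (154 to 238 against 15.8 to 42.2 CPM), both lowest in adult replicate 3 among adult libraries. Of 6 fibroblast markers, 1 was higher in adult and 0 in embryonic libraries, with sums of 552 to 683 CPM before birth and 504, 443 and 91.4 CPM in adult replicates 1, 2 and 3. Of 2 basophil markers, Mcpt8 was 3.70-fold higher in embryonic libraries (25.2 against 6.81 CPM, edgeR adjusted p = 6.5e-06) and Il3ra did not pass (adjusted p = 0.32). The basophil sum was 47.5 to 58.9 CPM before birth and 34.4 to 44.2 CPM in the adult.

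Foxh1 (ENSMUSG00000033837.4, chromosome 15, 76668284 to 76669948 in GRCm38) was counted 1484, 803 and 874 times in embryonic replicates 1, 2 and 3 and 2 times in each adult library. Its level was 31.9, 22.7 and 18.2 CPM in embryonic libraries and 0.0402, 0.0461 and 0.0526 CPM in adult ones, under the floor that 3 counts set in every adult library. The groups did not overlap, and embryonic replicate 1 was the highest. The ratio of summed counts, per scaled library size, was 532 (95% exact binomial interval 244 to 1451, counting error only), and the fitted log2 fold change was 8.96 ± 0.35 (SE). Foxh1 was lowest in embryonic replicate 3, the embryonic library with the highest sums of keratinocyte and erythroid markers. The part of such cells in the Foxh1 value was not tested.

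Gdf3 (ENSMUSG00000030117.5, chromosome 6, 122605403 to 122610087) was counted 1077, 916 and 926 times in embryonic and 4, 6 and 1 times in adult libraries. Its level was 23.1, 25.9 and 19.3 CPM in embryonic libraries, against 0.0804, 0.138 and 0.0263 CPM in adult ones. The 3 embryonic libraries lay close together and far above all adult libraries. The ratio of summed counts was 268 (interval 149.5 to 537), and the log2 fold change 8.04 ± 0.33 (SE). Both genes were under the minimum count of the expression filter in every adult library, so they entered the fit through their embryonic counts. Over 14 other settings of the analysis the log2 fold change stayed between 8.69 and 9.22 for Foxh1 and between 7.69 and 8.57 for Gdf3.

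**Figure D1:**
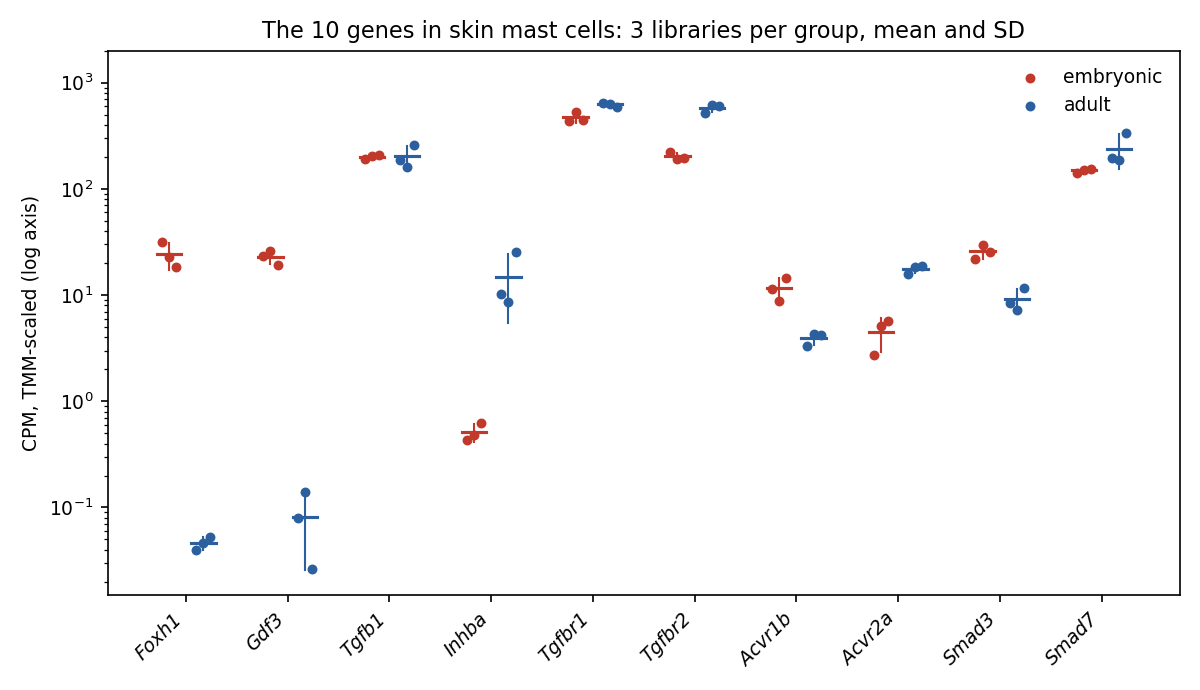
Each point is the CPM of 1 of the 10 genes in 1 library (log axis, TMM-scaled sizes), red for the 3 embryonic and blue for the 3 adult libraries; short bars give group means and vertical lines the SD. Foxh1 and Gdf3 lie at 18.2 to 31.9 CPM in embryonic and at most 0.138 CPM in adult libraries, Inhba goes the other way, and Tgfb1 overlaps between the groups.

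Foxh1 stood high among forkhead genes before birth. Per length, as TPM (transcript level scaled to the library, from counts and exon bases), its level was 75.8, 56.6 and 42.6 TPM in embryonic libraries, the second rank among 19 forkhead genes that passed the filter. Only Foxp1, a factor broadly active in blood cells, had a higher mean, at 87.2 TPM in embryonic and 65.9 TPM in adult libraries, and the lowest Foxp1 library (78.2 TPM) lay above the highest Foxh1 library. Foxn3, a repressor, followed at 46.9 ± 6.82 TPM (SD, n = 3), and its libraries overlapped with those of Foxh1. In adult libraries Foxh1 averaged 0.112 TPM and ranked 19 of 19, level with Foxc2 (0.116 ± 0.041 TPM). Foxh1 passed the filter through its embryonic counts, so a low adult rank was built into this set. The count table holds 44 forkhead genes, and some that did not pass, such as Foxe1 and Foxn4, had 0 adult counts. Of the other 18 tested forkhead genes, 4 passed toward the embryo and 9 toward the adult, where 31.2% and 31.7% of all tested genes did. Foxp1 was 1.34-fold higher in embryonic libraries (edgeR adjusted p = 0.0071), while Foxn3 missed the threshold (log2 fold change -0.18, edgeR adjusted p = 0.20).

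**Figure D2:**
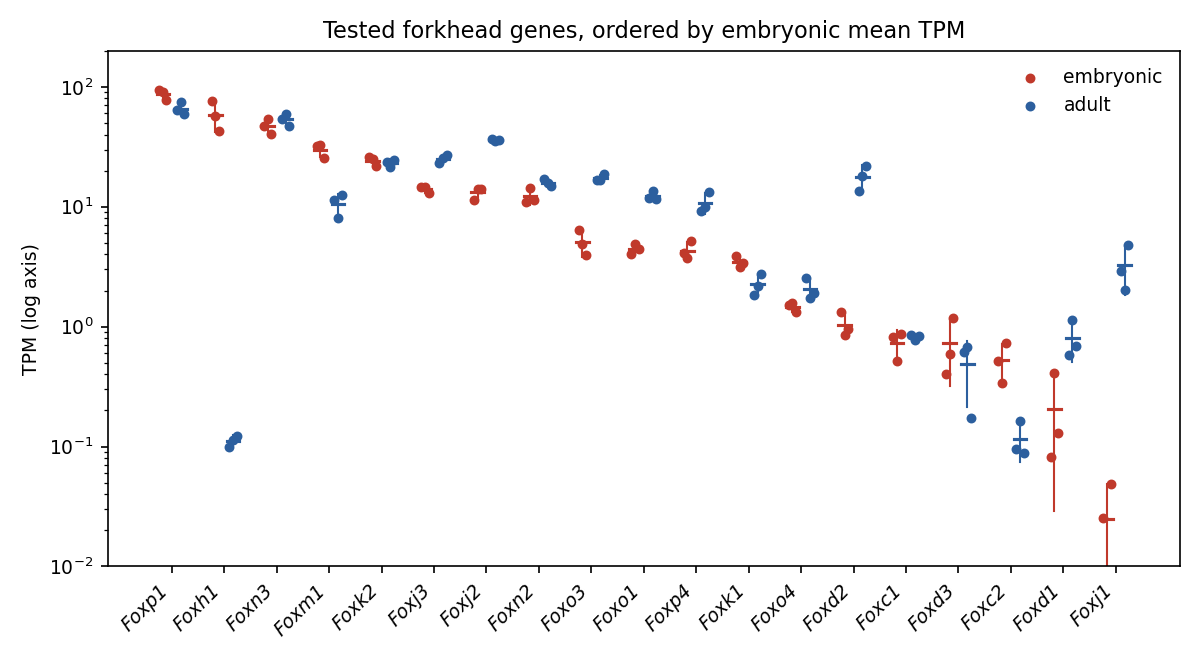
TPM (log axis) of the 19 forkhead genes that passed the filter in 3 embryonic (red) and 3 adult (blue) libraries, ordered by embryonic mean, with lines for mean and SD; 1 embryonic value of Foxj1 is 0 and cannot be drawn on this axis. Among these 19 genes Foxh1 is second by embryonic mean at 58.3 TPM and last by adult mean at 0.112 TPM. It entered this set through its embryonic counts.

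Among genes that work with FOXH1 and Gdf3 in the early embryo, Nodal, Lefty2 and the EGF-CFC co-receptors had few counts or none. The receptors and SMADs of the pathway are given below. Nodal itself had 6 counts over all embryonic and 0 over all adult libraries, and the feedback inhibitor Lefty2 likewise 6 and 0. The EGF-CFC co-receptors Tdgf1 and Cfc1 had 1 and 0 counts in embryonic libraries, and 9 and 0 in adult ones. Gdf1, a partner of Nodal, shares 100% of its exon bases with Cers1 and Upf1, and reads overlapping several genes were not counted, so its 0 counts carry no information. Lefty1, another Nodal antagonist, was at 1.49 ± 0.26 CPM before birth and 1.25 ± 0.14 CPM in the adult and did not pass the test (edgeR adjusted p = 0.56).

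Genes known as Nodal or FOXH1 targets in the early embryo did not share a direction. Sox17, an endoderm and endothelial factor, was 9.96-fold higher in embryonic libraries at 1.56 ± 0.887 CPM (edgeR adjusted p = 0.0022), 17.7-fold without adult replicate 1 and 5.43-fold without embryonic replicate 3 and adult replicate 3. It shares 16.8% of its exon bases with a predicted antisense gene. Of 4 endothelial markers 3 were also higher in embryonic libraries (24.7 to 31.0 CPM summed, against 2.60 to 6.21). Most of that sum was Pecam1, at a mean of 24.0 CPM before birth and 3.22 CPM in the adult. Cdh5, Kdr and Emcn averaged 0.885, 2.18 and 0.802 CPM before birth, and Emcn did not pass (edgeR adjusted p = 0.17). The part of endothelial cells in the Sox17 value was not tested. Hhex, a hematopoietic and endodermal factor, was the abundant gene of the list, at 65.3 ± 9.79 CPM before birth and 104 ± 18.4 CPM in the adult, 1.59-fold higher in the adult (adjusted p = 0.0040). Gsc, Mixl1, Eomes, Foxa2, Lhx1 and Cyp26a1 did not pass the filter.

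Of 14 listed genes of pluripotent and germ cells, 11 did not pass the expression filter and 6 had 0 counts in every library, Pou5f1, Zfp42 and Esrrb among them. Nanog had 0 counts in embryonic and 7 in adult libraries, and Dppa3 4 and 1. Klf4, a factor also made in many differentiated cells, averaged 257 ± 143 CPM in the adult and 3.72 ± 1.31 CPM before birth, a 68.6-fold difference (edgeR adjusted p = 0.00018). Sox2 and Tfcp2l1 averaged under 0.51 CPM in both groups and did not pass the test (adjusted p = 0.67 and 0.061). Tfcp2l1 did not overlap between the groups, higher in the embryonic ones, and passed in 2 of 13 other settings, without embryonic replicate 3 (adjusted p = 0.04) and without embryonic replicate 3 and adult replicate 3 (adjusted p = 0.018), while without embryonic replicate 2 its fold was 2.15 in place of 3.37.

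Of 13 genes within 100 kb of Foxh1, all tested, 7 were higher in embryonic libraries (53.8%, against 31.2% of all tested genes), 2 in adult libraries and 4 did not pass. Recql4, a DNA helicase, showed a log2 fold change of 2.04 ± 0.28 (SE, edgeR adjusted p = 0.00012), and Kifc2, a kinesin, 1.58 ± 0.31 (adjusted p = 0.0013). Gpt, an alanine aminotransferase, was 2.83-fold and Mfsd3, a transporter-like gene that shares 19.5% of its exon bases with Recql4, 2.14-fold higher. Arhgap39 was 1.72-fold higher in adult libraries (adjusted p = 0.00092). Ppp1r16a, the next gene on the other side, did not pass (log2 fold change -0.27, adjusted p = 0.074). Tonsl was 1.35-fold higher in embryonic libraries, and calls of 3 weaker neighbours depended on the setting (Slc39a4, lost in 5 of 14, Lrrc14 in 9 and Cyhr1 in 6).

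Kifc2 lies tail to tail with Foxh1. The counted models of the 2 genes are 87 bases apart, but the RefSeq span of Foxh1 (76667829 to 76671614) reaches 368 bases into Kifc2. Counting ignored strand, so reads from such a longer Foxh1 transcript would fall to Kifc2. Kifc2 was at 9.04, 7.59 and 5.40 CPM in embryonic libraries, in the same order as Foxh1, and at 2.65, 1.62 and 3.10 CPM in adult ones. The part of Foxh1 reads in the Kifc2 value was not tested.

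Near Gdf3 only Apobec1 and Mfap5 passed the filter, of 11 genes within 100 kb. Apobec1 encodes an RNA editing enzyme, and its counted model starts 2959 bases past the 3′ end of Gdf3 on the same strand. It was at 4.55 ± 0.92 CPM before birth and 3.51 ± 0.33 CPM in the adult and missed the threshold (log2 fold change 0.37 ± 0.25 SE, edgeR adjusted p = 0.23). Mfap5, a microfibril gene, did not pass either (adjusted p = 0.15).

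**Figure D3:**
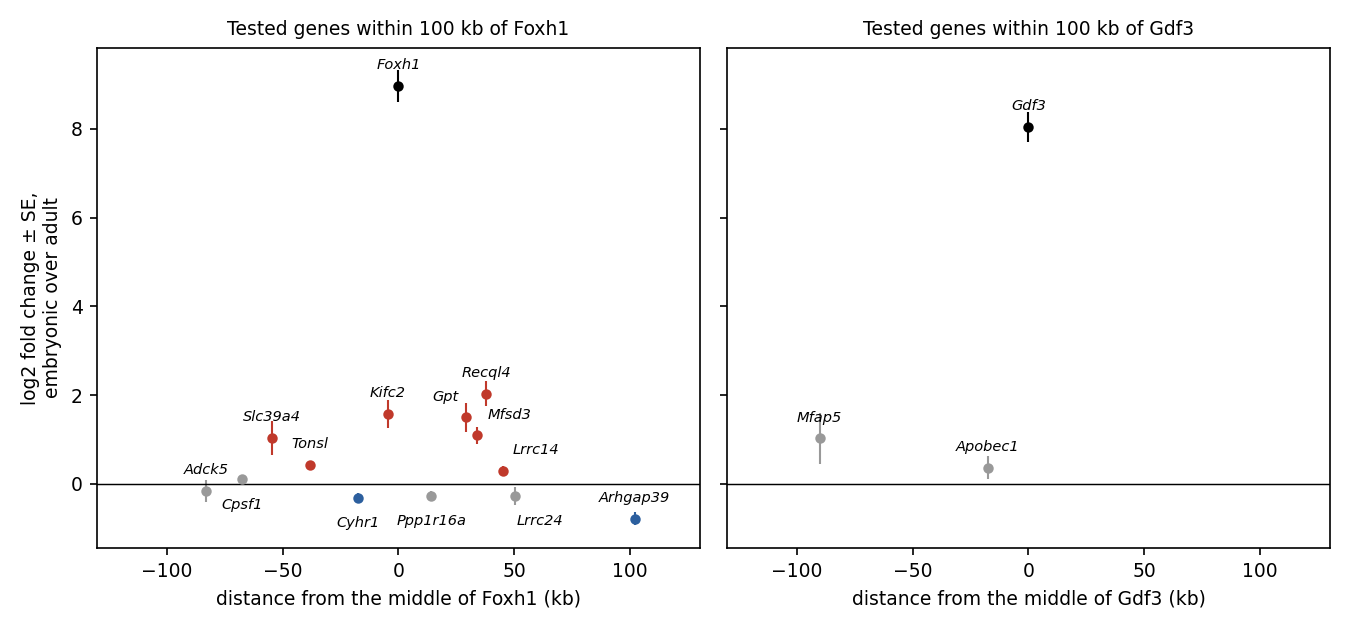
Log2 fold change (embryonic over adult, ± SE) of tested genes against the distance of their middle from the middle of Foxh1 (left) or Gdf3 (right), in kb. Red and blue points passed the test as higher in embryonic or adult libraries, grey points did not, and Foxh1 and Gdf3, shown in black, were not tested. Both lie at 8.04 or above, while no neighbour exceeds 2.04.

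The genes closest to Foxh1 in pattern over the 6 libraries, by root mean square difference of centred log2 CPM, were Cx3cr1 (0.20), the fractalkine receptor, Emid1 (0.25) and Prss34 (0.27), a serine protease. Closest to Gdf3 were Tfr2 (0.26), transferrin receptor 2, Sytl2 (0.30), a vesicle docking protein, and Fbp1 (0.30), a gluconeogenic enzyme. Foxh1 and Gdf3 lay 0.52 apart. These distances describe 6 libraries, and each is set mostly by the difference between the groups.

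The ligands among the 10 genes did not move together. Tgfb1 (ENSMUSG00000002603.15, chromosome 7, 25687002 to 25705077), the main TGF-beta of blood cells, was at 190, 203 and 209 CPM before birth and 185, 162 and 259 CPM in the adult. The groups overlapped, and the log2 fold change was -0.01 ± 0.16 (SE) and took either sign over 14 other settings (-0.15 to 0.21). Inhba (ENSMUSG00000041324.13, chromosome 13, 16011851 to 16027211) encodes the subunit of activin A. It was at 0.429, 0.481 and 0.625 CPM in embryonic libraries, and at 10.1, 8.67 and 25.6 CPM in adult replicates 1, 2 and 3. All adult libraries lay above all embryonic ones, with adult replicate 3 well above the others. Inhba was 28.6-fold higher in adult libraries in the fit (log2 fold change -4.84 ± 0.49 SE), and 18.3-fold without adult replicate 3. Per length, Inhba reached 0.0065 ± 0.0010 of the Tgfb1 level in embryonic and 0.176 ± 0.066 in adult libraries (SD, n = 3).

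Of the 12 other ligands of the TGF-beta, activin and Nodal branch, 4 passed the filter and 1 was higher in each direction, where 63.0% of all tested genes were called. Tgfb3, a second TGF-beta isoform, was 3.22-fold higher in adult cells, with 2.91 ± 1.24 CPM against 0.901 ± 0.371 CPM (edgeR adjusted p = 0.0097), but 5.16-fold without embryonic replicate 3 and adult replicate 3. Gdf11, related to myostatin, was 1.83-fold higher in embryonic libraries (adjusted p = 0.050), a call lost in 10 of 14 other settings (adjusted p = 0.034 to 0.15 over all of them).

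In the BMP and GDF branch some differences were larger. Of 18 listed ligands 8 were tested, and 4 were higher in adult and 1 in embryonic libraries, 62.5% called, close to the 63.0% of all tested genes. Gdf15, a stress-induced hormone, was at 0.429, 0.226 and 0.167 CPM before birth and 26.8, 27.2 and 24.6 CPM in the adult, 93.9-fold higher in the adult (edgeR adjusted p = 6.1e-08). Bmp2, a bone morphogenetic protein, was at 1.52, 1.42 and 2.73 CPM before birth and 58.5, 69.6 and 143 CPM in the adult, 47.2-fold higher (adjusted p = 0.00011), and like Inhba it was highest in adult replicate 3. Bmp7 was 3.36-fold higher in adult libraries (adjusted p = 0.00043). Gdf10, a BMP relative, was higher in embryonic libraries at 0.552 ± 0.203 CPM, with 70 counts in all against 4 in the adult (log2 fold change 4.07, adjusted p = 0.0014), and its 16.8-fold difference was 11.2-fold without embryonic replicate 3 and adult replicate 3. Gdf9 did not pass (adjusted p = 0.061), but passed in 4 of 14 other settings.

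Both type II receptors among the 10 genes were higher in adult cells, and the 2 type I receptors were split. Tgfbr2 (ENSMUSG00000032440.12, chromosome 9, 116087698 to 116175363), which binds TGF-beta, was at 222, 189.9 and 195 CPM before birth and 517, 623 and 601 CPM in the adult, 2.87-fold higher in the adult (log2 fold change -1.52 ± 0.11 SE). Tgfbr1 (ENSMUSG00000007613.15, chromosome 4, 47353222 to 47414931), its type I partner, was at 438, 535 and 447 CPM against 650.0, 636 and 589 CPM, 1.32-fold higher in the adult (log2 fold change -0.40 ± 0.11 SE). Neither gene overlapped between the groups, and Tgfbr2 differed more. Per length, the ratio of Tgfbr2 to Tgfbr1 was 0.691, 0.484 and 0.595 in embryonic libraries and 1.09, 1.34 and 1.39 in adult libraries.

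The activin receptors diverged further. Acvr1b (ENSMUSG00000000532.10, chromosome 15, 101174067 to 101213679), the activin type I receptor, was at 11.5, 8.89 and 14.4 CPM before birth and 3.32, 4.31 and 4.21 CPM in the adult, 2.94-fold higher in embryonic cells (log2 fold change 1.56 ± 0.23 SE). Acvr2a (ENSMUSG00000052155.5, chromosome 2, 48814109 to 48903269), a type II receptor for activin, was at 2.71, 5.07 and 5.69 CPM against 15.9, 18.5 and 18.9 CPM, 3.96-fold higher in adult cells (log2 fold change -1.99 ± 0.26 SE). Neither overlapped between the groups. Per length, the ratio of Acvr2a to Acvr1b was 0.183, 0.442 and 0.306 in embryonic and 3.72, 3.34 and 3.49 in adult libraries, so the order of the pair turned over. Acvr2a shares 7.84% of its exon bases with Orc4 on the other strand, and the reads there were not counted.

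Sequence before the RefSeq start of 4 genes is printed because type II receptors (Tgfbr2 and Acvr2a, higher in adult) and Acvr1b with Smad3 (higher in embryonic) went opposite ways. Of the 10 genes 7 have an entry in the RefSeq promoter table (GRCm38.p6). Foxh1, Gdf3 and Smad7 are not among them. The 4 genes were picked by the direction of their difference, and the windows of Tgfb1, Tgfbr1 and Inhba, which have entries, are not given. Matches in these 4 windows therefore do not describe the 10 genes as a set. Each run gives 250 bases before the start, 5′ to 3′ on the gene's strand, at chr9:116175364-116175613 (minus strand) for Tgfbr2, chr2:48813859-48814108 (plus) for Acvr2a, chr15:101173822-101174071 (plus) for Acvr1b and chr9:63757995-63758244 (minus) for Smad3. Capitals mark CAGAC, the letters of a SMAD binding element, on either strand (printed as GTCTG on the other).
Tgfbr2: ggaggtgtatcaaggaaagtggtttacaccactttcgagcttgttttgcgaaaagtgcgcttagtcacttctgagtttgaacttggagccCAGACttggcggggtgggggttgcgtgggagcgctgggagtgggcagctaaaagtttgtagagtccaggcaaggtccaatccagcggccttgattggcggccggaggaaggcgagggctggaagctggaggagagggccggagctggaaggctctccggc
Acvr2a: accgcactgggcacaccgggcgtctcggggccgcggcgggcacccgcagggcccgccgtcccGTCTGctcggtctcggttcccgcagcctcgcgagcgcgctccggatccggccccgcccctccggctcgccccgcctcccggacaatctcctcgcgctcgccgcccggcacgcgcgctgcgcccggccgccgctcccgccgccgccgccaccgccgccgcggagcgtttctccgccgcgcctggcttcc
Acvr1b: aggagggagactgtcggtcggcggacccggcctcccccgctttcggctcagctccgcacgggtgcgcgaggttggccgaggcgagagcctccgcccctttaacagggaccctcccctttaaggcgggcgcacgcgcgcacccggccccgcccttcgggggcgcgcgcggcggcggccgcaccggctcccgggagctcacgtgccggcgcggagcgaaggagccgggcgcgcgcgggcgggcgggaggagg
Smad3: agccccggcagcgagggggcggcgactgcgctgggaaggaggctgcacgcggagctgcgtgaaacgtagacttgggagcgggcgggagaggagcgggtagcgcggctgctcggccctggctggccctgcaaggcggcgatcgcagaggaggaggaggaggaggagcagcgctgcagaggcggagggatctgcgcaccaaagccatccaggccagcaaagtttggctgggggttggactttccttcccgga

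CAGAC stood at 1 place in the Tgfbr2 window, beginning 160 bases before the start, and at 1 place in the Acvr2a window, beginning 188 bases before it. No match was found in the windows of Acvr1b and Smad3. Of 32851 windows of 250 bases in the table, 42.2% held these letters, so a match is common. AATNCACA, a form of the FOXH1 site, was searched on both strands, and no match of it overlapped CAGAC. It was in none of the 4 and in 3.18% of all windows. GC content was 58.4% for Tgfbr2, 82.0% for Acvr2a, 78.8% for Acvr1b and 69.2% for Smad3, against a median of 52.4%.

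Of 14 listed receptors outside the 10, 11 were tested, and 7 were higher in adult and 2 in embryonic libraries, 81.8% called beside 63.0% of all tested genes. Amhr2, the type II receptor for anti-Mullerian hormone, averaged 1.38 ± 0.19 CPM before birth and 18.2 ± 2.06 CPM in the adult, 13.1-fold higher (edgeR adjusted p = 2.2e-07). Its ligand Amh had 3 counts in embryonic and 12 in adult libraries. Tgfbr3, betaglycan, which presents TGF-beta and inhibin to other receptors, was at 4.25, 5.46 and 7.40 CPM against 48.8, 60.3 and 66.0 CPM, 10.2-fold higher in adult libraries (adjusted p = 1.4e-06). Acvr1, a type I receptor for BMPs, was 2.32-fold higher in the adult (adjusted p = 0.00028).

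The receptors that went the other way serve BMPs. Bmpr2, the BMP type II receptor, was 1.71-fold higher in embryonic cells, with 72.4 ± 10.3 CPM against 42.4 ± 3.71 CPM (edgeR adjusted p = 0.00041). Bmpr1a, its type I partner, named after its values were seen, was 1.55-fold higher (adjusted p = 0.0016). Acvrl1, also named after its values were seen, was 6.38-fold higher in the adult, at 11.5, 10.6 and 3.21 CPM in adult replicates 1, 2 and 3. It is best known from endothelium, whose markers were lower in adult libraries (2.60 to 6.21 CPM summed, against 24.7 to 31.0) and lowest in adult replicate 3. Dendritic cell and macrophage markers were higher in adult libraries (29.5 to 73.2 and 154 to 238 CPM summed, against 0 to 0.417 and 15.8 to 42.2). Both sums were also lowest in adult replicate 3 among adult libraries. The part of any of these cells in the Acvrl1 value was not tested. Eng, the co-receptor of Acvrl1, averaged 1.75 and 1.76 CPM and did not pass (adjusted p = 0.99).

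Smad3 and Smad1, from different branches, differed in opposite directions. Smad3 (ENSMUSG00000032402.12, chromosome 9, 63646767 to 63757994), a receptor-activated SMAD of the TGF-beta and activin branch, was at 22.0, 29.9 and 25.5 CPM before birth and 8.44, 7.20 and 11.7 CPM in the adult. The groups did not overlap, and Smad3 was 2.83-fold higher in embryonic libraries (log2 fold change 1.499 ± 0.20 SE). Smad1, of the BMP branch, was 3.87-fold higher in adult cells, with 87.7 ± 8.46 CPM against 22.7 ± 4.06 CPM (edgeR adjusted p = 2.1e-06). Per length, the ratio of Smad1 to Smad3 was 0.845 ± 0.149 in embryonic and 9.48 ± 2.13 in adult libraries (SD, n = 3). Smad2, which shares the branch of Smad3, was the more abundant of that pair in all 6 libraries, 6.40 ± 1.34 times the Smad3 level per length in embryonic and 21.3 ± 5.15 times in adult libraries, and itself missed the threshold (log2 fold change -0.21, adjusted p = 0.073). Smad4, the shared partner, averaged 197 ± 19.8 and 212 ± 9.16 CPM and did not pass (adjusted p = 0.38).

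Inhibitory SMADs differed too. Smad7 (ENSMUSG00000025880.11), which blocks TGF-beta receptors and is itself induced by TGF-beta, was at 142, 151 and 154 CPM before birth and 194, 185 and 339 CPM in the adult. The adult libraries all lay above the embryonic ones, adult replicate 3 by the most, with a log2 fold change of -0.68 ± 0.22 (SE). Over the other settings its log2 fold change ran from -0.85 to -0.35. Smad6, which restrains BMP signals, was 4.34-fold higher in embryonic cells, with 3.34 ± 0.49 CPM against 0.764 ± 0.422 CPM (edgeR adjusted p = 0.0028). Smad5, which is of the BMP branch like Smad1 and not inhibitory, was 1.24-fold higher in adult libraries (adjusted p = 0.023). That call was lost in 6 of 14 other settings.

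Read together, 9 of the 10 genes lay past the threshold in the fit of all genes, 4 as higher in embryonic and 5 as higher in adult libraries, beside 63.0% of all tested genes. The groups did not overlap for 9 of the 10, beside 70.0% of all tested genes. Both counts include the values that chose these genes and are given as a description. Ordered by TPM, the 4 highest in embryonic libraries were Tgfbr1 (228), Tgfbr2 (132), Tgfb1 (125) and Smad7 (103), with Tgfbr2 and Tgfb1 overlapping, followed by Foxh1 (58.3) and Gdf3 (29.6). In adult libraries the order was Tgfbr2 (384), Tgfbr1 (304), Smad7 (167) and Tgfb1 (126), with Smad7 and Tgfb1 overlapping, then Inhba (23.4), Acvr2a (9.91), Smad3 (5.20) and Acvr1b (2.83). In these bulk libraries, fewer expressing cells and less RNA per cell cannot be told apart.

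Of 12 genes that hold or release latent TGF-beta, 11 were tested, and 4 were higher in adult and 2 in embryonic libraries, 54.5% called beside 63.0% of all tested genes. Nrros, which anchors latent TGF-beta on myeloid cells, had the highest level per length of these genes before birth (634 TPM) and was at 846 ± 99.1 against 328 ± 26.7 CPM, 2.58-fold higher in embryonic libraries (edgeR adjusted p = 5.7e-06). Ltbp1, a latent TGF-beta binding protein, was 2.55-fold higher (adjusted p = 0.00018). Furin, the protease that cleaves TGF-beta precursors, was 3.49-fold higher in adult cells, with 2368 ± 552 CPM against 679 ± 36.8 CPM (adjusted p = 1.1e-05). Itgav, 1 chain of integrins that activate latent TGF-beta, was 1.91-fold higher in the adult (adjusted p = 1.5e-05), and Thbs1, thrombospondin 1, did not pass (adjusted p = 0.84).

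Secreted antagonists were scarce. Of 9 listed, 4 were tested and 1 passed, 25.0% beside 63.0% of all tested genes. Fstl1, a follistatin-like glycoprotein made by mesenchymal cells, was 2.83-fold higher in embryonic cells, with 14.2 ± 3.52 CPM against 4.98 ± 2.77 CPM (edgeR adjusted p = 0.024), and 1.86-fold without embryonic replicate 3 and adult replicate 3. The call was lost with the replicate block (adjusted p = 0.054) and without embryonic replicate 3 (adjusted p = 0.072). Fstl1 was 6.69, 6.46 and 1.79 CPM in adult replicates 1, 2 and 3, and the fibroblast sum was also lowest in adult replicate 3; its part in the Fstl1 value was not tested. Fst, follistatin, which binds activin, averaged 2.57 ± 1.34 and 4.37 ± 1.15 CPM and did not pass (adjusted p = 0.15).

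Inside the cell, repressors of the pathway went both ways. All 29 listed regulators and cofactors were tested, with 14 higher in adult, 9 in embryonic libraries and 6 not past the threshold, 79.3% called beside 63.0% of all tested genes. Tgif1, a homeodomain repressor that binds SMADs, was at 243, 251 and 226 CPM before birth and 23.0, 25.0 and 25.2 CPM in the adult, 9.84-fold higher in embryonic cells (edgeR adjusted p = 9.7e-09). Rbl1, the pocket protein p107, was 2.55-fold higher in embryonic libraries (adjusted p = 6.3e-06). The ubiquitin ligases Smurf1 and Smurf2, which turn over receptors and SMADs, were 2.68-fold and 2.33-fold higher in adult libraries (adjusted p = 2.0e-06 and 7.2e-06). The SMAD corepressors Ski and Skil, named after their values were seen, were 2.81-fold and 3.16-fold higher in adult libraries, and Strap did not pass (adjusted p = 0.31).

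Genes known to respond to TGF-beta showed no common direction. Of 12 listed and tested, 7 were higher in adult and 4 in embryonic libraries, 91.7% called beside 63.0% of all tested genes. Mcpt2, a mucosal mast cell protease, was 4.39-fold higher in embryonic cells, with 19.8 ± 1.77 CPM against 4.50 ± 0.52 CPM (edgeR adjusted p = 2.3e-06); its close paralogs make the split of reads uncertain. Cdkn1a, the cell cycle inhibitor p21, was 3.09-fold higher in adult cells, with 1236 ± 60.9 CPM against 401 ± 58.1 CPM (adjusted p = 2.4e-06). Tgfbi, a matrix protein, was 37.6-fold higher in adult libraries, at 41.1, 30.6 and 12.9 CPM in replicates 1, 2 and 3 (adjusted p = 7.7e-05). Itgae, the alpha chain of an integrin also found on dendritic cells and T cells, was 29.0-fold higher, at 8.10, 5.37 and 3.13 CPM (adjusted p = 4.9e-05). Among adult libraries, Tgfbi and Itgae were lowest in replicate 3. The dendritic cell markers (Cd207, Flt3 and Itgax) were lowest there too, at 29.5 CPM summed against 67.7 and 73.2 CPM in replicates 1 and 2. So were the sums of macrophage markers (154 against 229 and 238 CPM) and of fibroblast markers (91.4 against 504 and 443 CPM). The part of these cells was not tested. Cdkn2b did not pass (adjusted p = 0.96).

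Over all 8 pathway lists, 84 of 112 genes were tested, and 39 were higher in adult and 21 in embryonic libraries, 71.4% called against 63.0% of all tested genes. Their median log2 fold change was -0.45, against -0.02 over all tested genes. The libraries of the groups did not overlap for 65 of the 84, beside 70.0% of all tested genes.

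**Figure D4:**
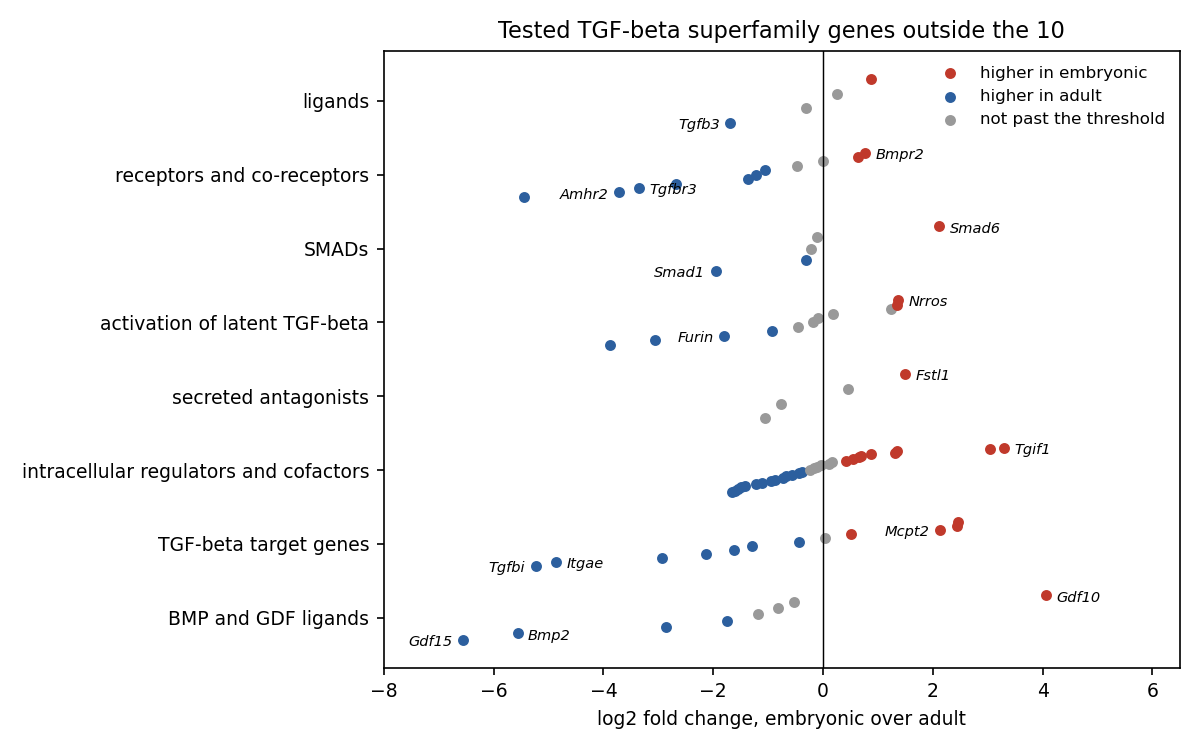
Log2 fold change (embryonic over adult) of the 84 tested pathway genes outside the 10, 1 point a gene, grouped by list; red and blue points passed edgeR's test at an adjusted p of 0.05, grey points did not. Gdf15 lies furthest toward the adult at -6.55 and Gdf10 furthest toward the embryo at 4.07.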

How the data were processed

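Poly(A) RNA of 6 libraries was made into full-length cDNA with a SMART-Seq v4 kit and tagmented, per the labels' protocols. The authors deposited raw counts, which featureCounts 1.5.0-p1 made, per the file headers, from exons of GENCODE M9 genes, ignoring strand (setting 0) and reads marked as duplicates. STAR and GRCm38 (mm10) are named in the submitters' processing notes; whether duplicates had been marked is not given in the sources used here. Without molecular identifiers, intervals and floors cover counting error only.

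Symbols came from GENCODE M21 by gene ID (47224 matched, 419 did not). Counts were tested over the whole table with edgeR 4.0.16 in R 4.3.3 (TMM, filterByExpr with a minimum count of 10, robust quasi-likelihood fit, Benjamini-Hochberg adjustment, threshold 0.05), which kept 15111 genes. Standard errors are the log2 fold change over the square root of F. TPM used deposited exon lengths; log2 CPM for pattern distances used a prior count of 2. Replicate pairs of a group differed by more than counting noise (chi-square per degree of freedom 34.3 to 89.1).

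The 10 genes, the pathway lists and the alternatives were chosen with earlier results of these data known. Named in the text were, by list, the 4 smallest adjusted p-values, the best call in the other direction and the most abundant gene not called; the 3 genes with most counts in the early embryo and pluripotency lists; neighbours within 100 kb that passed the filter; the 3 most abundant forkhead genes; and the 3 nearest patterns to Foxh1 and to Gdf3, predicted genes left out; 1 gene that this rule names is not reported here. Alternatives were RLE and upper quartile scaling, 2 other filters, DESeq2 1.42.0, limma-voom (limma 3.58.1), a replicate block, omission of each library in turn and a stricter threshold. A fit without replicate 3 of both groups was added after the data were seen.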

Additional observations from a re-analysis of the deposited data

How the results depend on the processing

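Under 14 other settings, 9 of the 10 genes kept their direction, and Tgfb1, with a log2 fold change near 0, took either sign. Pathway genes called numbered 19 to 24 in embryonic and 35 to 42 in adult libraries over those settings, and 17 and 33 at an adjusted p of 0.01. Leaving out each library in turn gave 20 to 22 and 35 to 40 pathway genes, and 4333 to 4601 and 4441 to 4620 of all genes. With the replicate number as a block, 19 and 38 pathway genes were called, against 21 and 39 without it. Same-numbered libraries did not deviate together (correlations of -0.122, -0.079 and -0.133), which gave no sign of a pairing by number. With 3 libraries per group this cannot decide whether the samples were paired, and no label states it. Of 63 other named genes, 10 crossed the threshold in at least 1 setting, and 0 calls reversed direction. Some genes that were never called took either sign, such as Thbs1 (log2 fold change -0.51 to 0.80) and Eng (-0.76 to 0.52). Low counts limit Foxh1 and Gdf3 in the adult, where 3 counts correspond to 0.0603 to 0.0789 CPM.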

Other observations

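Foxd2, Foxj1 and Foxm1, 3 other forkhead genes, are named here after their values were seen. Foxd2, a mesenchymal factor, averaged 14.6 ± 3.98 CPM in the adult and 0.863 ± 0.212 CPM before birth, 16.8-fold higher in the adult (edgeR adjusted p = 1.5e-06). Foxj1, known from ciliated cells and as a restraint on T cells, had 346 counts in adult and 3 in embryonic libraries, a ratio of 114 (95% exact binomial interval 38.8 to 557, counting error only). Foxm1, a driver of mitotic genes, was 2.85-fold higher in embryonic libraries (adjusted p = 6.1e-05).

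Acvr1c, the type I receptor used by Nodal and Gdf3 besides Acvr1b, was named after its values were seen. It had 5 counts in embryonic libraries, all in replicate 2, and 75, 97 and 75 counts in adult libraries (log2 fold change -5.45 ± 0.95 SE, edgeR adjusted p = 0.00074).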
